A study of Mus musculus with 8 samples.

Results

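The 10 genes examined encode G protein-coupled receptors through which gut hormones, nutrients and nerves adjust insulin secretion: Glp1r, Gipr, Gcgr, Gpr119, Ffar1, Ffar2, Ffar3, Adra2a, Chrm3 and Galr1. They were chosen by symbol, and all 10 were found among the 32531 gene rows of the deposited count table. RNA had been sequenced from whole islets of 8 mice, 4 control and 4 β-tetO-NICD, on a mixed background of C57BL/6J, 129X1/SvJ and BALB/c. Every mouse of both groups carried RIP-Cre and Rosa26-rtTA and had doxycycline (Dox) in its drinking water for 8 weeks, so both transgenes and the drug are shared. Only the β-tetO-NICD mice, called NICD here, carried tetO_NICD, from which Dox and rtTA drive the intracellular domain of Notch1 (NICD), the active form of that receptor. Because RIP-Cre uses an insulin promoter, NICD was directed to β cells, whereas the RNA came from all cells of the islet preparation. The age of these mice is not in the labels.

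The receptors fall into classes by the G protein they engage. Receptors for the incretins GLP-1 and GIP, for glucagon and for lipid amides (Glp1r, Gipr, Gcgr and Gpr119) couple to Gs, raise cAMP and increase glucose-stimulated insulin secretion. The long-chain fatty acid receptor Ffar1 and the muscarinic acetylcholine receptor Chrm3 couple to Gq, activate phospholipase C and also promote secretion. The α2A adrenergic receptor Adra2a and the galanin receptor Galr1 couple to Gi and restrain it, and the short-chain fatty acid receptors Ffar2 and Ffar3 signal through Gi, Ffar2 also through Gq.

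Total counts per library were between 22430941 and 25950164 in controls and between 21701223 and 26413146 in NICD islets. Levels are given as CPM, counts scaled to a common library size after TMM normalization. The NICD libraries are called 1, 2, 4 and 5 after the table's columns, and libraries 4 and 5 cannot be tied to single mice. Notch1 had at most 1562 counts in a control and at least 11388 in a NICD library, as the labels say, and the Notch target Hes1 rose from 7.24 ± 1.03 to 44.2 ± 10.6 CPM (SD, n = 4 each, adjusted p = 0.00014 by edgeR). Although the study's methods describe males, counts of the Y-linked gene Eif2s3y were above 1 in only 2 controls and 1 NICD library. Libraries also differed in how their counts depended on transcript length. Across 14655 genes, Spearman's rho between transcript length and a library's deviation from the mean of all libraries was between 0.42 and 0.50 in controls 1, 2 and 4 and in NICD library 1. It was −0.17 in control 3 and between −0.52 and −0.36 in NICD libraries 2, 4 and 5. This length trend separates the libraries nearly as genotype does, so for each receptor the log2 differences within the classes of libraries (positive trend first) are also given, and called genes of the lists that did not pass with the class as a covariate are named as such.

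All 10 receptor genes passed the filter of at least 10 counts in at least 4 libraries. Of these, 1 (Ffar2) rose in NICD islets and 0 fell by the quasi-likelihood test of edgeR, with p-values adjusted by Benjamini-Hochberg over 15082 genes and called at an adjusted p under 0.05. Of all tested genes, 6.76% passed, 4.19% as higher and 2.57% as lower, so 1 call among 10 receptors is close to the background. At an unadjusted p under 0.05, which 31.6% of all tested genes met, 2 receptors were higher and 4 lower. DESeq2 called 2 receptors higher and 4 lower, with 18.2% of all genes called, and limma-voom 1 higher and 2 lower, with 7.18% of all genes called. Galr1, Chrm3, Adra2a, Ffar1 and Glp1r, 5 receptors in all, had an adjusted p between 0.05 and 0.09. The groups did not overlap in 5 of the 10 receptors, 2 with NICD above (Ffar2, Adra2a) and 3 below (Glp1r, Chrm3, Galr1), against 16.1% of all tested genes (8.22% above and 7.92% below). The median log2 fold change between NICD and control, called log2 change here, was −0.14 over the receptors and 0.00075 over all tested genes. Without NICD library 1 the same test called 2 receptors higher and 4 lower, while the share of all genes called was 33.2%.

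**Figure D1:**
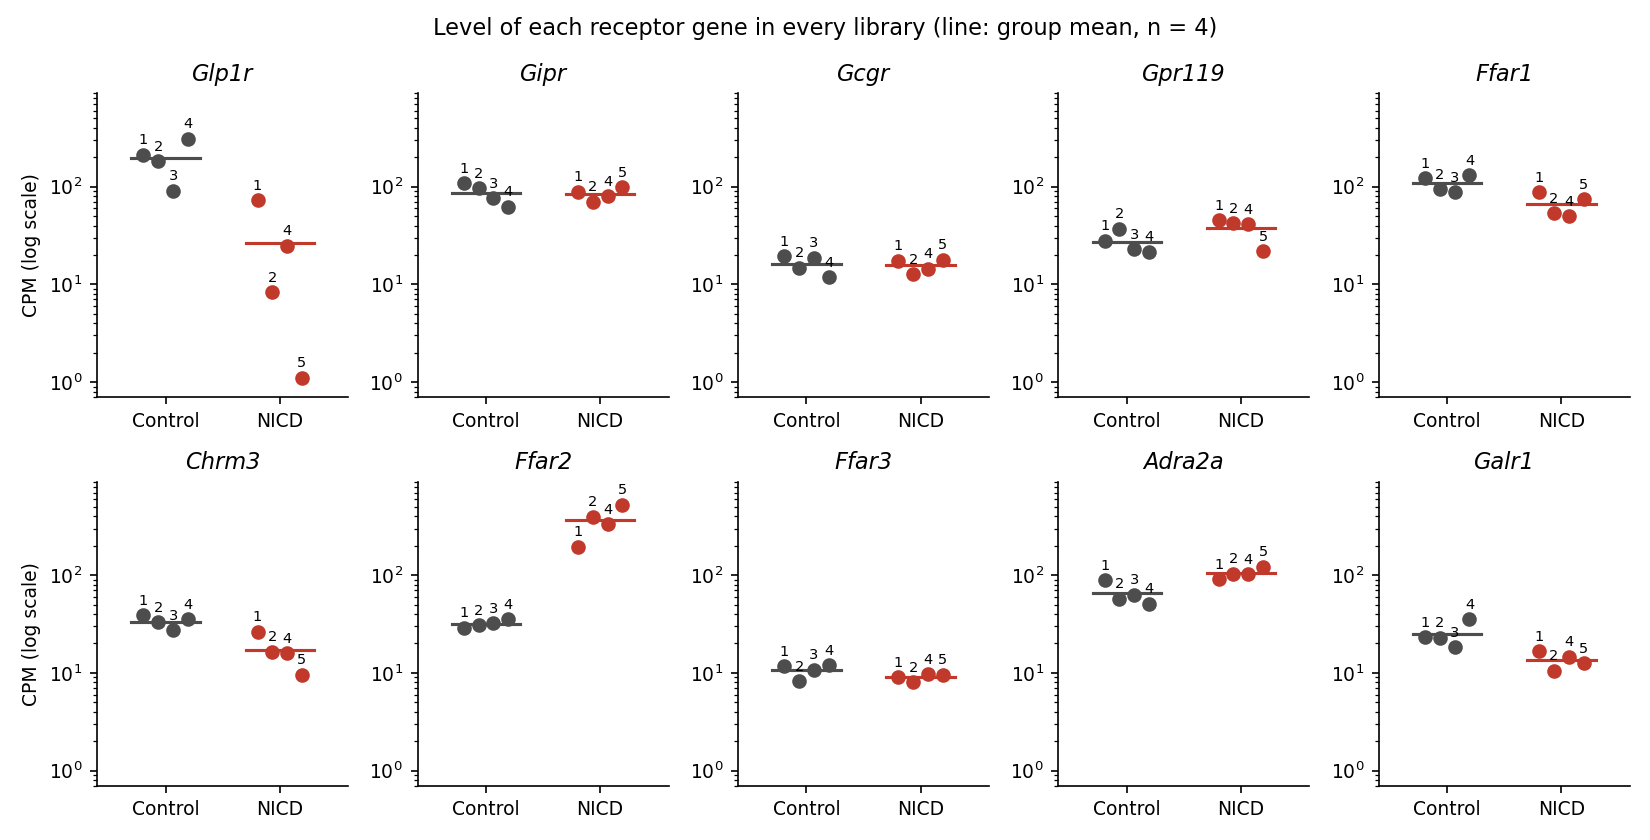
CPM of each of the 10 receptor genes in every library on a log axis, with points numbered by library and a line at the group mean (n = 4 per group). Ffar2 lies between 29.0 and 35.2 CPM in controls and between 196 and 528 CPM in NICD islets, whereas Glp1r spans 1.11 to 72.8 CPM within the NICD group.

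Ffar2, which responds to acetate, propionate and other short-chain fatty acids, had 629, 724, 810 and 868 counts in controls 1 to 4. It had 4127, 9132, 10031 and 10489 counts in NICD libraries 1, 2, 4 and 5. In CPM these were 29.0, 30.6, 32.0 and 35.2 against 196, 398, 333 and 528. Every NICD library lay far above every control, and the controls were nearly alike. The mean rose from 31.7 ± 2.65 to 364 ± 138 CPM (SD, n = 4 each), an 11.5-fold increase with a 95% interval of 7.34 to 17.9. The log2 change was 3.52 (standard error 0.29, adjusted p = 0.000157 by edgeR), which ranked 28 by p among all tested genes. In bulk islet RNA, fewer or more cells of a type and less or more RNA per cell cannot be told apart. Library 1, the NICD library with the length trend of most controls, had the lowest Ffar2 of its group. Within the libraries of positive trend the log2 difference was 2.64 (1 NICD library against 3 controls), and within those of negative trend it was 3.68 (3 against 1). With the class of length trend as a covariate the log2 change was 3.17 (adjusted p = 0.000301 by edgeR), and with presence of Eif2s3y as a covariate it was 3.58 (adjusted p = 0.000530 by edgeR).

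Ffar2 lies in a cluster with the other free fatty acid receptors on chromosome 7 of GRCm38, all on the minus strand in GENCODE M21. Ffar2 runs from 30818348 to 30823775, Ffar3 from 30854330 to 30856178 and Ffar1 from 30857390 to 30861564, with 30554 and 1211 bases between neighbors and no annotated gene in either gap. Ffar3, the propionate and butyrate receptor, had 11.7, 8.27, 10.8 and 11.9 CPM in controls and 9.07, 8.03, 9.69 and 9.57 CPM in NICD libraries 1, 2, 4 and 5. Of the controls, 3 lay above every NICD library and control 2 lay within their range, and the log2 change was −0.23 with a 95% interval of −0.62 to 0.15 (adjusted p = 0.359 by edgeR). Within the classes of length trend the log2 differences were −0.21 and −0.25. The ratio of Ffar2 to Ffar3 CPM within a library was between 2.48 and 3.69 in controls and between 21.6 and 55.2 in NICD islets.

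Ffar1, known as GPR40 and highly expressed in β cells, had 123, 94.9, 87.5 and 130.3 CPM in controls 1 to 4. In NICD libraries 1, 2, 4 and 5 it had 88.4, 53.7, 49.7 and 74.5 CPM. Only library 1 reached the control range. The log2 change was −0.71 with a 95% interval of −1.20 to −0.22, and it did not pass the threshold (adjusted p = 0.0758 by edgeR). Of the 8 fits that left out 1 library, it passed only without library 1 (log2 change −0.87, adjusted p = 0.0134 by edgeR). Within the classes of length trend the log2 differences were −0.38 and −0.58. Ffar4, the other long-chain fatty acid receptor and not part of the cluster, rose from 13.7 ± 5.86 to 28.3 ± 3.10 CPM (SD, 4 mice per group, adjusted p = 0.0463 by edgeR), and passed in only 2 of the 8 fits that left out 1 library. It did not pass with the class of length trend as a covariate (log2 change 0.81, adjusted p = 0.0654 by edgeR) or with the length offset (log2 change 0.69, adjusted p = 0.0596 by edgeR), nor with the Eif2s3y or acinar covariate (adjusted p = 0.0644 and 0.0660 by edgeR).

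The sequences upstream of Ffar2 and Ffar3 are shown because these neighbors, both short-chain fatty acid receptors, had unlike values. Each is the 250 bases before an annotated start in RefSeq on GRCm38.p6, written 5′ to 3′ on the strand of the gene. RefSeq promoter windows of 250 bases before to 50 after the start were found and searched for 8 of the 10 receptors, and Ffar2 has 4 annotated starts, of which the one farthest upstream is shown. Capitals mark TGGGAA, the core letters bound by the Notch effector RBPJ, and TGACGTCA, the palindromic cAMP response element. Both strands were searched, and these motifs do not overlap each other.
Ffar2 (chr7:30823776-30824025, minus strand): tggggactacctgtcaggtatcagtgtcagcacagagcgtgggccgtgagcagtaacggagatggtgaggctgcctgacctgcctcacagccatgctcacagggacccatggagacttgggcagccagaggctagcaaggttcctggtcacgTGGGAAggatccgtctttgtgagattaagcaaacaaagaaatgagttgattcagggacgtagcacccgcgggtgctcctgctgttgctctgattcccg
Ffar3 (chr7:30856179-30856428, minus strand): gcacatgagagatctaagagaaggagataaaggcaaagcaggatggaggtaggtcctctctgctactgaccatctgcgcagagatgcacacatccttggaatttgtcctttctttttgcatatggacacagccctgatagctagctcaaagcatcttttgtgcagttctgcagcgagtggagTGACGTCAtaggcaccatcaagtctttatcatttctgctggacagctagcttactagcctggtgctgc

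The Ffar2 window shown held TGGGAA at 2 places, one starting 98 bases before the start and one beginning at the start itself, beyond the printed stretch. Each of the other Ffar2 windows also held it, and the windows of the starts at 30821192 and 30821139 overlap and share 1 match. The Adra2a window held it once on the opposite strand, and it was not found in the windows of Ffar1, Ffar3, Glp1r, Gcgr, Gpr119 or Chrm3. Of 32851 promoter windows of this length in the table, 25.6% held TGGGAA. The longer form CGTGGGAA, which contains TGGGAA and was searched only after these sequences were seen, was present at 2 places in the Ffar2 window shown, once in that of Adra2a, and in 0.734% of all windows. TGACGTCA was found only in the Ffar3 window, 68 bases before the start, and in 1.79% of all windows. These matches describe letters and show no binding.

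Glp1r, which encodes the GLP-1 receptor (chromosome 17, 30901817 to 30940791), had 212, 182, 91.0 and 309 CPM in controls 1 to 4. In NICD libraries 1, 2, 4 and 5 it had 72.8, 8.33, 24.9 and 1.11 CPM, or 1533, 191, 750 and 22 counts. All 4 NICD libraries lay below the lowest control, but library 1 lay close to control 3, and the NICD libraries differed among themselves by 65.7-fold. The mean was 199 ± 89.8 CPM in controls and 26.8 ± 32.3 CPM in NICD islets (SD, n = 4 each). The log2 change of −2.89 had the widest 95% interval of the receptors, −4.98 to −0.81, and did not pass the threshold (adjusted p = 0.0838 by edgeR). Of the 8 fits that left out 1 library, it passed only without library 1 (log2 change −4.10, adjusted p = 0.00934 by edgeR). DESeq2 (adjusted p = 0.0337) and limma-voom (adjusted p = 0.0427) called it lower. Glp1r is overlapped by 2 annotated genes on the opposite strand, Gcgr by 1 antisense gene and Chrm3 by 6 genes on either strand, and whether the counting used strand is not given in the sources used here.

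Glp1r also followed the length trend of the libraries. Its lowest values were in the 3 NICD libraries of negative trend, its highest NICD value was in library 1, of positive trend, and its lowest control was control 3, of negative trend. The log2 difference was −1.65 within the libraries of positive trend and −3.85 within those of negative trend, and −2.32 with the class as a covariate (adjusted p = 0.104 by edgeR). The longest Glp1r transcript has 5811 bases, longer than those of 84.5% of tested genes, whose median is 3359 bases. The 5 genes whose log2 CPM over the 8 libraries was most like that of Glp1r, among 12753 genes with a mean of at least 50 counts, were Tbc1d8b, Lrrc8d, Spg11, Ncapd3 and Kif16b, with Pearson's r between 0.993 and 0.996. Their longest transcripts have 5094, 5736, 7671, 5499 and 6404 bases. Pearson's r does not reflect the size of a change. These genes were 2.74, 1.35, 2.53, 1.90 and 2.27-fold lower in NICD islets, none past the threshold, and Glp1r 7.42-fold lower. These correlations describe 8 libraries that share both genotype and length trend, and the part of the length trend in the Glp1r values was not tested beyond the covariate and the length offset, under which the log2 change was −2.75 (adjusted p = 0.0596 by edgeR).

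**Figure D2:**
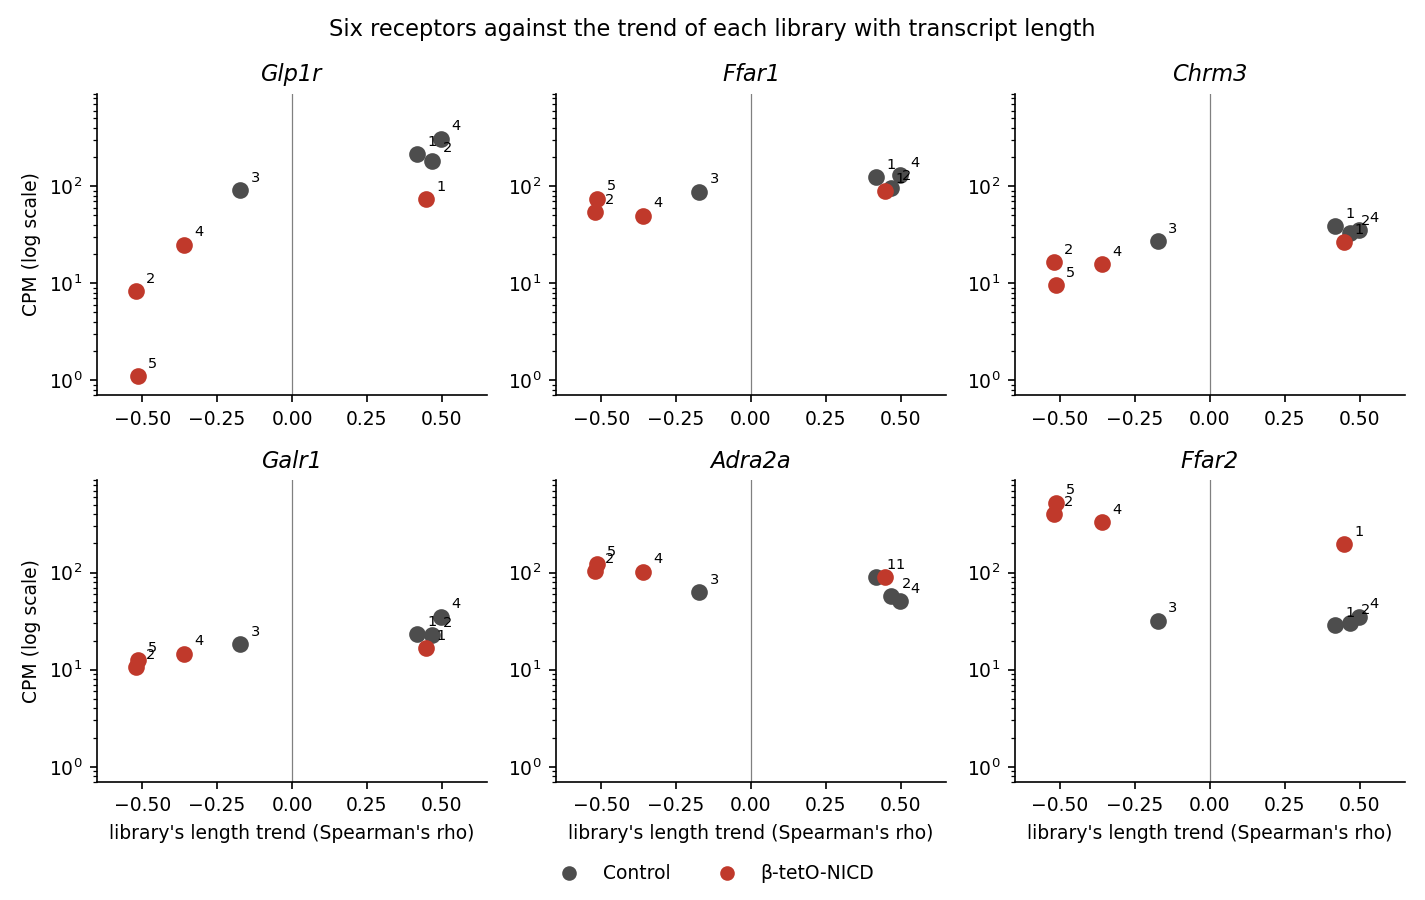
CPM (log axis) of 6 receptors in each of the 8 libraries against the library's length trend, the Spearman's rho between transcript length and its deviation from the mean of all libraries. Glp1r is highest in the controls at rho 0.42 to 0.50 and lowest in the NICD libraries at −0.52 to −0.36. Ffar2 is at 196 CPM in NICD library 1, at rho 0.45, and at most 35.2 CPM in controls.

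The other Gs-coupled receptors did not separate the groups. Gipr, the GIP receptor (chromosome 7, 19156061 to 19166127), had 108, 96.8, 75.9 and 62.7 CPM in controls 1 to 4. It had 89.1, 69.99, 79.7 and 99.0 CPM in NICD libraries 1, 2, 4 and 5. The groups overlapped fully, and the log2 change of −0.024 had a 95% interval of −0.46 to 0.41, or 0.726-fold to 1.33-fold (adjusted p = 0.940 by edgeR). Gcgr, the glucagon receptor (chromosome 11, 120530699 to 120538986), had 19.5, 14.9, 18.7 and 11.8 CPM in controls and 17.4, 12.8, 14.5 and 17.8 CPM in NICD libraries. Its log2 change was −0.054 with a 95% interval of −0.49 to 0.39 (adjusted p = 0.863 by edgeR). The signs of both estimates changed with the normalization (0.054 for Gipr and 0.022 for Gcgr with upper-quartile factors), so neither has a direction. The within-class log2 differences were 0.036 and 0.11 for Gipr and 0.21 and −0.33 for Gcgr. The ratio of Gipr to Glp1r CPM within a library was between 0.203 and 0.834 in controls and 1.22, 8.40, 3.20 and 89.4 in NICD libraries 1, 2, 4 and 5. Gpr119, a receptor for oleoylethanolamide and related lipids (chromosome X, 48667979 to 48674478), had 28.0, 37.0, 23.1 and 21.7 CPM in controls and 45.5, 42.5, 41.1 and 21.7 CPM in NICD libraries. In 3 NICD libraries it lay above all controls and library 5 lay within their range. The log2 change was 0.46 (95% interval −0.11 to 1.03, adjusted p = 0.229 by edgeR), with within-class log2 differences of 0.69 and 0.54.

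None of the neurotransmitter receptors passed the threshold, though their groups did not overlap, with NICD above in 1 and below in 2, beside 8.22% and 7.92% of all tested genes. Adra2a (chromosome 19, 54044151 to 54048982), through which noradrenaline inhibits insulin release, had 89.4, 57.2, 62.9 and 51.0 CPM in controls 1 to 4. It had 90.4, 104, 103 and 122 CPM in NICD libraries 1, 2, 4 and 5. The groups were separated only by the gap between control 1 and library 1. The log2 change was 0.69 with a 95% interval of 0.25 to 1.12 (adjusted p = 0.0605 by edgeR). Of the 8 fits that left out 1 library, Adra2a passed only without control 1 (adjusted p = 0.0305 by edgeR) and without library 1 (adjusted p = 0.0194 by edgeR). Within the classes of length trend the log2 differences were 0.50 and 0.79.

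Chrm3 (chromosome 13, 9875486 to 10360847), the receptor for acetylcholine released by parasympathetic nerves, had 38.8, 32.9, 27.2 and 35.2 CPM in controls. It had 26.4, 16.5, 15.8 and 9.57 CPM in NICD libraries 1, 2, 4 and 5. Library 1 lay just below control 3, and the others were well below. The log2 change was −0.97 with a 95% interval of −1.58 to −0.37 (adjusted p = 0.0598 by edgeR). Of the 8 fits that left out 1 library, Chrm3 passed only without library 1 (adjusted p = 0.00558 by edgeR), where 33.2% of all genes passed. Within the classes of length trend the log2 differences were −0.43 and −0.998. Galr1, through which the neuropeptide galanin inhibits insulin release, had 23.1, 22.8, 18.3 and 35.3 CPM in controls and 16.8, 10.6, 14.6 and 12.5 CPM in NICD libraries. The highest NICD library lay just below the lowest control. Its log2 change of −0.87 (95% interval −1.38 to −0.36) was the closest of the receptors to the threshold without passing it (adjusted p = 0.0511 by edgeR). Of the 8 fits that left out 1 library, Galr1 passed only without library 1 (adjusted p = 0.0148 by edgeR) and without control 3 (adjusted p = 0.0407 by edgeR). The within-class log2 differences of Galr1 were −0.66 and −0.55.

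**Figure D3:**
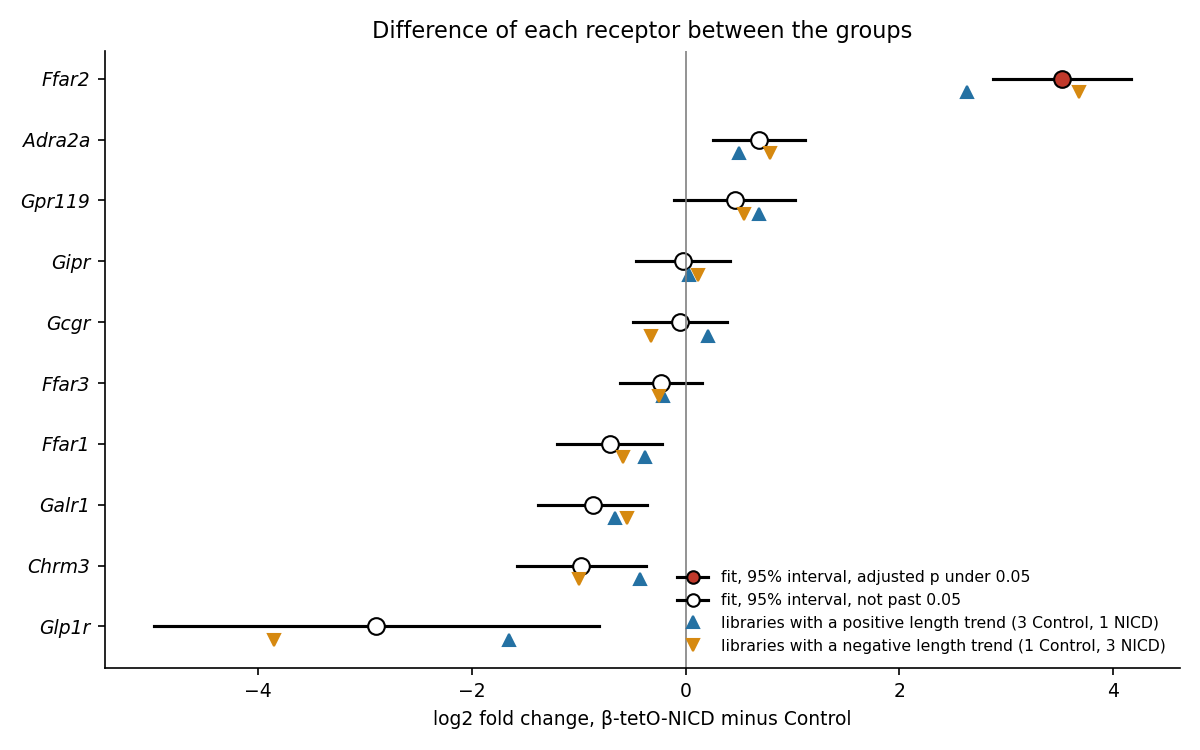
Log2 fold change of each receptor, NICD minus control, with its 95% interval from edgeR's fit (filled where the adjusted p is under 0.05), and the log2 differences within libraries of positive (upward triangles) and negative length trend (downward triangles). Ffar2 stands at 3.52, and both triangles lie on the same side of 0 as the estimate for each receptor except Gipr and Gcgr.

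To compare levels between receptors, CPM was divided by the length of the longest annotated transcript in kilobases. In controls Glp1r had the highest level, 34.2 ± 15.5 CPM per kb (SD, n = 4), followed by Gipr with 27.0 ± 6.43, Ffar1 with 26.1 ± 4.99 and Ffar2 with 13.8 ± 1.15 CPM per kb. The ranges of neighbors in this order overlapped, except that every control had more Ffar1 than any had Ffar2. In NICD islets Ffar2 was first with 158 ± 60.1 CPM per kb (SD, n = 4), and its lowest library, at 85.2 CPM per kb, lay above the highest value of Gipr, 31.1 CPM per kb. Gipr (26.5 ± 3.91), Adra2a (21.7 ± 2.71), Gpr119 (16.6 ± 4.76) and Ffar1 (15.9 ± 4.35 CPM per kb) followed with overlapping ranges, and then, below the range of Ffar1, Gcgr with 6.25 ± 0.963 CPM per kb. Glp1r ranked 8 with 4.61 ± 5.55 CPM per kb, a mean that rests on library 1 (12.5 CPM per kb), without which it was 1.97 ± 2.10 CPM per kb (SD, n = 3) and the lowest of the 10. Ffar2 made up 8.85% of the summed mean level of the 10 receptors in controls and 59.9% in NICD islets, and Glp1r 21.95% and 1.75%. With median transcript lengths, Glp1r was still first in controls and Ffar2 first in NICD islets, but Ffar2 ranked above Ffar1 in controls, and the share of Ffar2 was 14.98% in controls and 73.7% in NICD islets. The mean levels moved as well, Ffar2 to 32.7 and 375 CPM per kb in controls and NICD islets, and Gipr to 43.6 and 42.9. Chrm3 moved from 7.73 to 15.7 CPM per kb in controls, from rank 8 to rank 5.

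**Figure D4:**
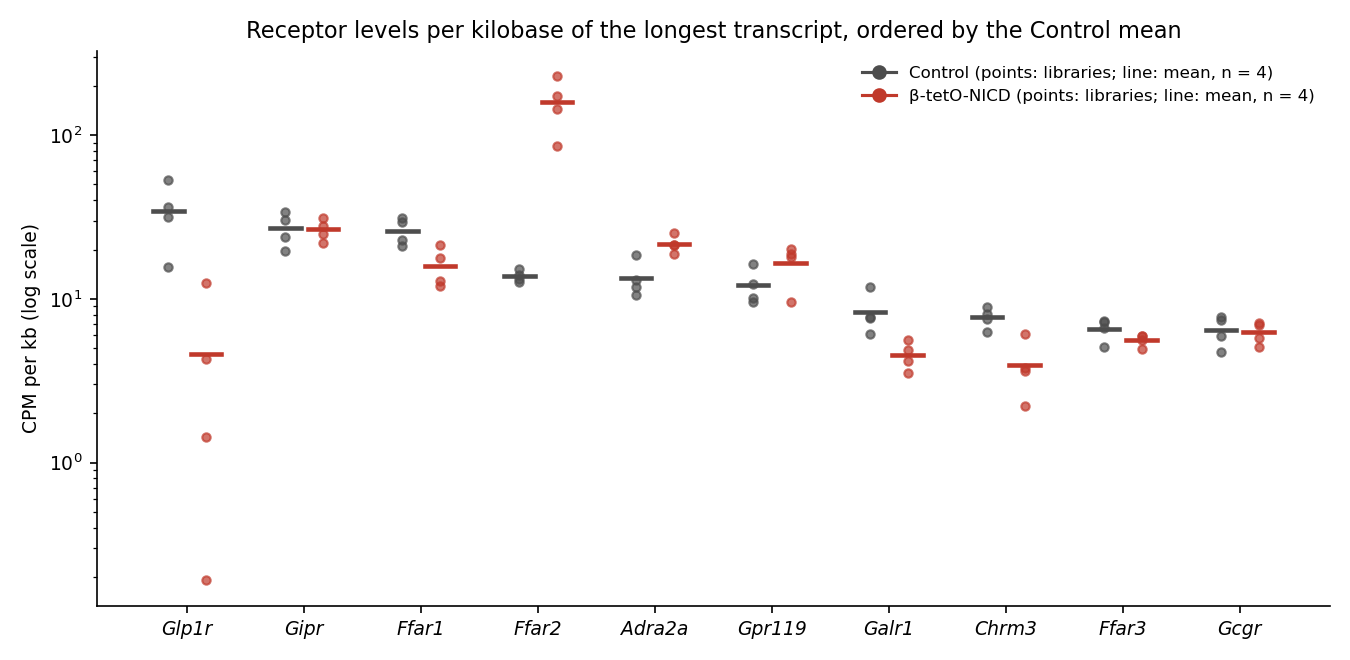
CPM per kilobase of the longest transcript (log axis) for each receptor, ordered by the control mean, with points for libraries and lines for group means (n = 4 per group). Glp1r is first in controls at 34.2 CPM per kb and at 4.61 in the NICD mean, while Ffar2 is at 13.8 and 158 CPM per kb.

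The receptors also differed in how much they varied between the libraries of a group, which held both classes of length trend. The SD of log2 CPM of Glp1r was 0.74 in controls and 2.53 in NICD islets. Among the 1508 tested genes of most similar mean expression, these stood at percentile 99.9 in controls and were the highest in NICD islets. Ffar2 had an SD of 0.12 in controls (percentile 18.4 of genes of similar expression) and 0.60 in NICD islets (percentile 86.1). For Ffar3 the SD was 0.24 and 0.12, and for Adra2a 0.35 and 0.18, at percentiles 6.17 and 22.4 in NICD islets.

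Of the ligands and of the enzymes that make or remove them, 15 of 17 genes could be tested, of which 3 fell and none rose, beside 2.57% of all tested genes called lower and 4.19% higher. Th, which encodes the rate-limiting enzyme of catecholamine synthesis, fell from 41.9 ± 1.02 to 15.0 ± 2.74 CPM (SD, 4 mice per group), a log2 change of −1.48 (adjusted p = 0.000681 by edgeR) that passed with each library left out. Dpp4, which inactivates GLP-1 and GIP, fell from 93.2 ± 12.8 to 34.5 ± 16.4 CPM (SD, 4 mice per group, adjusted p = 0.0199 by edgeR) and passed in 4 of the 8 fits without 1 library. Pcsk1, the prohormone convertase that cuts GLP-1 from proglucagon, fell from 547 ± 168 to 260.4 ± 64.8 CPM (SD, 4 mice per group, adjusted p = 0.0446 by edgeR) and passed in 2 of the 8 fits without 1 library. With the class of length trend as a covariate Pcsk1 did not pass (log2 change −0.72, adjusted p = 0.122 by edgeR), nor with the Eif2s3y or acinar covariate (adjusted p = 0.0863 and 0.0617 by edgeR). Gcg, which encodes glucagon and GLP-1, showed a log2 change of 1.44 (adjusted p = 0.0622 by edgeR) with all 4 NICD libraries above the controls, and Gal a log2 change of 1.13 (adjusted p = 0.136 by edgeR). Gip had at most 2 counts in any library.

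Of 30 close relatives of the receptors, 29 were in the table and 16 could be tested, of which 3 rose and none fell, beside the same shares of all tested genes. Besides Ffar4 these were Vipr2, a receptor for the peptides VIP and PACAP, and Adrb1, the β1 adrenergic receptor. Vipr2 rose from 1.80 ± 0.738 to 8.93 ± 2.02 CPM (SD, 4 mice per group), a log2 change of 2.31 (adjusted p = 0.00429 by edgeR) that passed with each library left out. Adrb1 rose from 0.342 ± 0.197 to 1.35 ± 0.318 CPM (SD, 4 mice per group, adjusted p = 0.0287 by edgeR), on 3 to 14 counts in controls and 26 to 38 in NICD libraries. Adrb1 passed in 2 of the 8 fits without 1 library and not with the class or acinar covariate (adjusted p = 0.0620 and 0.0521 by edgeR). Chrm2 and Chrm4, muscarinic receptors that couple to Gi, showed log2 changes of −0.96 and −0.73 (adjusted p = 0.123 and 0.336 by edgeR). The median log2 change of the list was −0.098.

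Downstream of the receptors, 4 of 33 tested G protein genes and regulators passed, 3 higher and 1 lower, or 12.1% beside 6.76% of all tested genes. Gna14, a Gq-family α subunit, rose from 2.12 ± 0.467 to 5.62 ± 1.34 CPM (SD, 4 mice per group, adjusted p = 0.0145 by edgeR) and passed in 7 of the 8 fits without 1 library. The β subunit genes Gnb2 and Gnb4 showed log2 changes of 0.69 and 0.66 (adjusted p = 0.0473 and 0.0379 by edgeR), and passed in 1 and 2 of the 8 fits without 1 library. Neither passed with the class covariate (log2 changes 0.48 and 0.70, adjusted p = 0.114 and 0.0618 by edgeR) or with the Eif2s3y covariate (adjusted p = 0.0737 and 0.0542 by edgeR), and Gnb2 did not with the acinar covariate (adjusted p = 0.0545 by edgeR). Grk5, a kinase that desensitizes receptors, fell from 29.7 ± 4.95 to 13.9 ± 4.76 CPM (SD, 4 mice per group, adjusted p = 0.0262 by edgeR) and passed in 2 of those fits. Of the α subunit genes that did not pass, Gnas, which encodes that of Gs, showed a log2 change of 0.54 (adjusted p = 0.0818 by edgeR). Others went the other way, such as Gnai2 and Gna13 with log2 changes of −0.60 and −0.52 (adjusted p = 0.0698 and 0.0553 by edgeR).

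Of 49 cAMP and phospholipase C effectors, all tested, 2 rose and 3 fell, or 10.2% beside 6.76% of all tested genes. The calcium-stimulated adenylyl cyclase gene Adcy8 rose from 1.55 ± 0.367 to 5.29 ± 2.09 CPM (SD, 4 mice per group), a log2 change of 1.77 (adjusted p = 0.0140 by edgeR) that passed with each library left out. Crem, which encodes a cAMP-responsive transcription factor, showed a log2 change of 0.80 (adjusted p = 0.0371 by edgeR), passed in 1 of the 8 fits without 1 library and did not pass with the class covariate (log2 change 0.60, adjusted p = 0.1295 by edgeR). Of the genes that fell, Prkca and Prkcb encode protein kinase C isoforms that respond to diacylglycerol, and Plcb4 a phospholipase C. Prkca fell from 79.1 ± 14.7 to 33.6 ± 11.8 CPM (SD, 4 mice per group, adjusted p = 0.0176 by edgeR), and Plcb4 and Prkcb showed log2 changes of −0.99 and −0.96 (adjusted p = 0.0454 and 0.0447 by edgeR). Of the fits without 1 library, Prkca passed in 5, Plcb4 in 1 and Prkcb in 2, and with the class covariate Prkcb did not pass (log2 change −0.70, adjusted p = 0.0845 by edgeR). With the Eif2s3y covariate Plcb4, Prkcb and Crem did not pass (adjusted p = 0.0752, 0.0749 and 0.0521 by edgeR). The 5 lists, 1 of them of other islet receptors, held 135 tested genes, of which 18 passed, or 13.3%, beside 6.76% of all tested genes, and 11 were higher and 7 lower. Without NICD library 1 these were 18 and 27, or 33.3% beside 33.2% of all genes, so the difference from the background was no longer there, and without NICD library 2 they were 4 and 1, or 3.70% beside 2.14%. Of the 18 calls, 11 were kept with the class covariate, 10 with the Eif2s3y covariate and 14 with the acinar covariate. The median log2 change of the 135 tested genes was −0.13.

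Some markers of islet cell types also passed, Pcsk1 and Th being on a marker list and on the ligand list. Beside them, 4.19% of all tested genes were called higher and 2.57% lower. Of 16 β cell markers 4 fell (G6pc2, Pcsk1, Slc2a2 and Ucn3) and none rose. The summed level of all 16 was 159121 to 199086 CPM in controls and 74172 to 173224 CPM in NICD islets. Of the NICD libraries, the sum was lowest in 1 and highest in 5, which had the highest and lowest Glp1r. Of 9 α cell markers 3 rose (Gc, Irx1 and Irx2), with sums of 12386 to 43437 and 56036 to 71024 CPM, and of 6 δ cell markers Hhex rose, with sums of 2530 to 6681 and 5192 to 14264 CPM. Beside Ffar2, which leukocytes also express, 1 of 8 macrophage markers rose (C1qa), and their sum was 153 to 206 CPM in controls and 224 to 325 CPM in NICD islets. The 2 PP cell, 12 acinar, 7 duct, 7 endothelial and 9 stromal markers included no call, and of 7 tested neural and Schwann cell markers Th alone fell. No marker was at 0 in all libraries. The part of these markers in the receptor values was not tested, apart from an acinar covariate, with which the log2 change of Ffar2 was 3.59 (adjusted p = 0.000365 by edgeR).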

How the data were processed

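Stranded poly(A) libraries of islet RNA were sequenced for the study. The authors pseudoaligned the reads to the GRCm38 mouse transcriptome with Kallisto and deposited whole-number counts per gene symbol, not normalized, and the version, annotation release and rounding are not given in the sources used here. A second deposited table holds the authors' own limma comparison (log2 fold changes, test statistics and p-values) and was not used. Columns were assigned by name, and 2 NICD columns by group only. The number of other per-sample columns was 0.

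Genes reaching 10 counts in 4 or more libraries were fitted in R 4.3.3 with edgeR 4.0.16 (TMM, glmQLFit, glmQLFTest, no covariate). Totals of between 21701223 and 26413146 counts per library place the receptors above the floor of 3 counts, which is at most 0.151 CPM and covers counting error only. Standard errors are the log2 change divided by the root of F, and 95% intervals use the t distribution of the fit. Within-class differences and spreads use log2 CPM with a prior count of 2. Lengths and gene coordinates are those of GENCODE M21. Alternatives were DESeq2 1.42.0, limma-voom (limma 3.58.1), other normalizations and filters, covariates, a length offset, a replicate block and leaving out each library. The class of length trend was added after the data were seen. The fits were first tested on simulated data. No pair of libraries of the same group agreed within sampling noise (chi-square of at least 31.5 per gene), so each was 1 replicate.

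The receptors and gene lists were chosen with earlier results of these data known. Named genes were the 10 receptors, the called genes of each list (at most 6), Notch1 and Hes1, and the 5 genes most like Glp1r and Gcgr. Gcg, Gal, Gip, Chrm2, Chrm4, Gnas, Gnai2, Gna13 and Gpr142 fall outside this rule and were chosen after their values were seen. Protein sequences were not used here, and 1 marker gene is not reported here.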

Additional observations from a re-analysis of the deposited data

How the results depend on the processing

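Ffar2 passed the threshold in all 19 alternatives, with log2 changes between 3.17 and 3.73. Gipr, Gcgr, Ffar3 and Gpr119 passed in none of the 19, and Glp1r, Ffar1, Adra2a, Chrm3 and Galr1 in 4, 3, 5, 5 and 6, always with the sign of the main estimate. The main test called 1 receptor higher and 0 lower, 11 genes of the 5 lists higher and 7 lower, and 1020 genes in all. With DESeq2 these were 2, 4, 17, 15 and 2739, and 15082 genes were tested in both. With a transcript length offset 2 receptors were higher and 2 lower, and 1536 genes were called in all, or 10.5%. With the class of length trend as a covariate 7 list genes were higher and 610 genes (4.04%) were called. With the Eif2s3y covariate 6 list genes were higher and 4 lower, with 4.91% of all genes called. Upper-quartile normalization called 2 receptors higher, with 7.68% of all genes called. The acinar covariate and limma-voom each called 2 receptors lower, with 5.76% and 7.18% of all genes called. Median-ratio normalization and a minimum of 10 counts in every library each called 1 lower (Galr1), with 6.94% and 7.44% of all genes called. Upper-quartile normalization also raised the share of higher calls to 70.7% of 1158, against 632 of 1020. Leaving out each library in turn gave 1 to 2 receptors higher and 0 to 4 lower, 4 to 18 list genes higher and 1 to 27 lower, and 319 to 4953 genes in all, the highest each time without NICD library 1 (equalled for receptors higher without control 1). The causes of these shifts were not tested.

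The sign of Gipr turned with upper-quartile normalization (0.054), with the class of length trend as a covariate (0.063), within the libraries of positive (0.036) and negative trend (0.11), and in the range of fits without 1 library (−0.14 to 0.12). That of Gcgr turned with upper-quartile normalization (0.022), within the libraries of positive trend (0.21) and in the range without 1 library (−0.18 to 0.055).

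Replicate numbers could be set side by side only for libraries 1 and 2 of each group, whose same-numbered deviations correlated at 0.062 across genes, so the numbers are not taken to pair the mice. With the replicate block over those 4 libraries, 1 receptor was higher and 1 lower (Glp1r), 7 and 3 list genes were called, and 610 genes (4.03%) in all.

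The lowest count of a receptor in any library was 22, of Glp1r in NICD library 5, whereas Adrb1, with 3 to 14 counts in controls, is imprecise. The effect of depth was not tested.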

Other observations

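Other islet receptors outside the fixed set of 10 were described by a list of 32 genes, of which 22 could be tested. Of these, 3 rose in NICD islets and none fell, beside 4.19% of all tested genes called higher. Oxtr, which encodes the oxytocin receptor, had 504, 753, 1008 and 569 counts in controls 1 to 4 and 3387, 3195, 5142 and 2293 in NICD libraries 1, 2, 4 and 5. Every NICD library was above every control. Its level rose from 29.5 ± 8.02 to 147 ± 24.5 CPM (SD, 4 mice per group), a log2 change of 2.31 (standard error 0.22, adjusted p = 0.000431 by edgeR) that passed in all 19 alternatives. P2ry1, a Gq-coupled receptor for ADP, rose from 33.4 ± 6.77 to 72.4 ± 5.39 CPM (SD, 4 mice per group, adjusted p = 0.00538 by edgeR) and passed with each library left out. Lgr4, a receptor for R-spondins, rose from 27.2 ± 2.86 to 49.7 ± 11.8 CPM (SD, 4 mice per group, adjusted p = 0.0281 by edgeR) and passed in 2 of the 8 fits without 1 library and with the class covariate, but not with the Eif2s3y covariate (adjusted p = 0.0656 by edgeR). Gpr142, a receptor for aromatic amino acids, showed a log2 change of 0.25 (adjusted p = 0.262 by edgeR).

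Gcgr differed little between the groups, and the genes most like it over the 8 libraries were B4galt4, Zfp830, Mettl16, Inhbb and Zc3h10, with Pearson's r between 0.892 and 0.976. Their longest transcripts have between 1591 and 12584 bases. The values describe libraries that differ in length trend as well as genotype. In 56 groups of 4 values, those of the receptors and of the called list genes in each genotype, none had a library whose distance from its neighbor in CPM, as a share of the range, exceeded Dixon's critical value, where chance gives about 2.8. On the log2 scale, tried after the data were seen, 1 did: Gpr119 in NICD library 5, with a share of 0.86 against 0.81 in CPM.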
